A study of Mus musculus with 12 samples.

Results

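The retinoic acid genes described here are the 10 genes Aldh1a1, Aldh1a2, Aldh1a3, Aldh1a7, Cyp26a1, Cyp26b1, Rara, Rarb, Rarg and Stra6. They were taken by name, with every probe set that the array annotation assigns to one of them alone, which gave 13 of 45037 probe sets and 10 of 18193 measured genes. Aldh1a3 had 3 probe sets, Rarg had 2 and each of the other genes had 1. Values are log2 intensities, so a difference of 1 is a doubling of the signal, and levels of different probe sets are not compared with each other.

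The arrays held RNA of mouse gonads at stage E11.5, when the gonad has not yet become a testis or an ovary. The 4 groups were Cbx2 knockout (KO) XY, KO XX, wild-type (WT) XY and WT XX gonads, with 3 arrays each. Cbx2 encodes a chromobox protein of Polycomb repressive complex, which keeps developmental genes silent. KO embryos came from crosses of heterozygotes, and which part of the gene was deleted is not given in these sources. Cells were cut by laser from 30 µm sections, with GATA4 staining and tissue form as the guide. Each array was a pool of 2 or 3 embryos, amplified from 15 ng of RNA, so all p-values measure the spread between pools.

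Retinoic acid is a vitamin A derivative that acts as a diffusible signal in embryos. Cells take up retinol through STRA6, oxidise it to retinaldehyde and then, with ALDH1A enzymes, to retinoic acid, and CYP26 enzymes break it down. The receptors RARA, RARB and RARG bind DNA as partners of RXR proteins, typically at repeated copies of a short hexamer, and activate target genes when retinoic acid is bound. In the fetal mouse, retinoic acid promotes entry of germ cells into meiosis in the ovary, and CYP26B1 holds it low in the testis.

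Promoter sequences from RefSeq (GRCm38.p6), 250 bases before to 50 after the start, were matched to 9 of the 10 genes, with 17 starts in all. They were searched on both strands for 2 copies, in the same direction, of the hexamer AGGTCA or of its variants. One variant was AGTTCA, another was GGGTCA and the last was GGTTCA, and copies in a repeat need not be the same. With 5 bases between the copies, the pattern was found in 32 of 32851 promoters in the reference, or 0.0974%, and in 2 of the 17, those of Rarb and Cyp26a1. In Rarb it lay from 53 to 37 bases before the start in the direction of the gene, and in Cyp26a1 from 32 to 16 bases before the start on the opposite strand. With 2 or 1 bases between the copies it was found in 0 of the 17, against 0.268% and 0.222% of all promoters. A single hexamer was found in 8 of the 17 and in 43.7% of all promoters. Rarb and Cyp26a1 are known targets of retinoic acid, so the share of all promoters gives scale only, and enrichment was not tested. These promoters are shown because they are the only ones of the 17 with the repeat, which is the kind of element that retinoic acid receptors bind. Capitals mark the hexamers of the repeat, which in Cyp26a1 read AGTTCA on the strand not printed, with Rarb at chr14:16575427-16575726 on the minus strand and Cyp26a1 at chr19:37697558-37697857 on the plus strand:
Rarb: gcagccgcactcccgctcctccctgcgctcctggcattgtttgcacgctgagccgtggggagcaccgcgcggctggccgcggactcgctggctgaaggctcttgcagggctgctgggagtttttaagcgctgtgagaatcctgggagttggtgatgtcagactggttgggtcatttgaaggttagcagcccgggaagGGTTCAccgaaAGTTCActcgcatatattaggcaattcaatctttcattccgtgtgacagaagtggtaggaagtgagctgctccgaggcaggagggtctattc
Cyp26a1: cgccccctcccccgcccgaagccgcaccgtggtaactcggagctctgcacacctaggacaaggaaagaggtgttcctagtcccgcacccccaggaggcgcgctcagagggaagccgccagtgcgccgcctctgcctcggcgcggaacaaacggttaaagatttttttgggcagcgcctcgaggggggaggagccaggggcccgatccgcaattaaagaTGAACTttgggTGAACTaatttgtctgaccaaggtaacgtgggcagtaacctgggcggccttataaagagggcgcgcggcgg

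**Figure D1:**
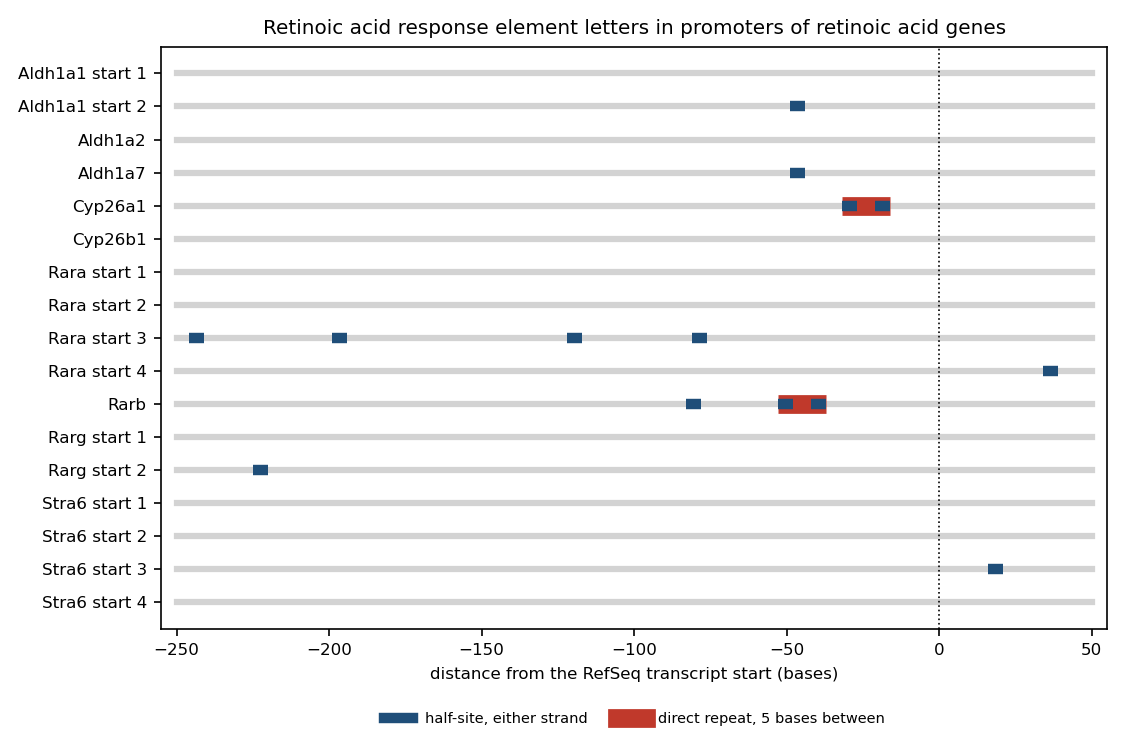
Positions of hexamers (blue) and of the direct repeat with 5 bases between (red) in the 17 promoters, as distance in bases from the RefSeq start, 1 row per start. The repeat is present in the Rarb and the Cyp26a1 row and in no other row, and rows without a mark held no hexamer in this window.

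Aldh1a1 and Aldh1a7 lie on chromosome 19 with 0 protein-coding genes between them in the same annotation. Their promoters were compared base by base without gaps, for Aldh1a1 at the start nearer to Aldh1a7. The 300 bases at its other listed start shared 77 with those of Aldh1a7 (25.7%). From 100 bases before to 50 after the start, at chr19:20601868-20602017 on the plus strand for Aldh1a1 and chr19:20727507-20727656 on the minus strand for Aldh1a7, 142 of 150 bases were the same (94.7%). Over the 150 bases before that window, 35 bases were the same (23.3%). The window was chosen after the identity was seen, and it is printed because these genes had the largest decreases among the 10. Capitals mark the 8 bases that differ:
Aldh1a1: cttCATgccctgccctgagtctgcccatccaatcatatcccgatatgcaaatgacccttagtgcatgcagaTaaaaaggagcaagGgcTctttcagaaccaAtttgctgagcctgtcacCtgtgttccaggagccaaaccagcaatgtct
Aldh1a7: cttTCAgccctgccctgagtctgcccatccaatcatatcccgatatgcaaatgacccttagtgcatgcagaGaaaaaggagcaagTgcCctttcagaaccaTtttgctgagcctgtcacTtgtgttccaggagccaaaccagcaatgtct

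Several properties of the arrays bear on every value below. Xist, expressed from the inactive X, lay at 12.55 to 12.88 in XX arrays and 5.81 to 6.09 in XY arrays, and the Y-linked Eif2s3y at 9.36 to 10.13 in XY arrays and 3.12 to 3.73 in XX arrays, so both matched the sex in the labels. Cbx2 signal at 1434116_at was 9.33 to 9.58 in KO XY gonads, against 8.81 to 9.04 in WT XY gonads, and 9.27 to 9.48 in KO XX gonads, against 8.46 to 8.77 in WT XX gonads. The signal was thus higher in arrays labelled KO, by 0.52 ± 0.12 in XY and 0.74 ± 0.12 in XX (SE, limma adjusted p = 0.013 and 0.00116). Where these probes lie relative to the deletion is unknown, so this probe set does not check the genotype, and the genotype names stand for the labels alone. Cbx2 also had another probe set, 1422059_at, whose values are not given here. One label field of the WT arrays, their source, gives KO XX, and their titles and genotype field were followed instead. WT XX replicate 1 correlated less with its own group (mean r = 0.9878) than with the WT XY arrays (mean r = 0.9945). The second principal component, the second largest axis of variation between arrays, held 14.8% of the variance. On it WT XX replicate 1 lay at -8.49, near the WT XY arrays (-20.31, -8.51 and -9.86). WT XX replicates 2 and 3 lay at 41.48 and 42.1, and which WT XX arrays are typical was not tested. KO XX replicate 1 carried 7 genes at least 2 log2 units above every other array, described at the end. The Gapdh 3' minus 5' signal difference, which grows with shortened transcripts, was 4.91 ± 0.12 in KO XY, against 4.13 ± 0.38 in WT XY, and 4.05 ± 0.22 in KO XX, against 4.30 ± 0.45 in WT XX (SD, n = 3). Fits with this difference as a covariate are given where they change a KO minus WT call of a retinoid gene named below. The Gapdh values did not overlap in XY, at 4.78 to 5 in KO XY and 3.89 to 4.57 in WT XY. In XY such a fit cannot cleanly separate the covariate from genotype, and why a call was lost there was not tested.

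Arrays labelled KO had much lower Aldh1a1 and Aldh1a7 signal and higher Rarb in both sexes. Aldh1a2 was modestly higher in both sexes, with an XY call that held in 16 of 23 alternatives. Cyp26b1 was called lower in XY only, but its KO effects in the 2 sexes did not differ past the threshold (limma adjusted p = 0.676). By limma, with Benjamini-Hochberg adjustment over all probe sets and calls at adjusted p under 0.05, 6 of the 10 genes had a called probe set in XY, 2 higher and 4 lower. Called probe sets made up 46.2% of these 13 in XY, against 8.89% of all probe sets, of which 4.24% were higher and 4.65% lower. In XX, 5 of the 10 genes had a called probe set, 2 higher and 3 lower, or 38.5% of the 13 probe sets, against 9.35% of all probe sets, 5.77% higher and 3.58% lower. The median difference over the 13 probe sets was -0.11 in XY and -0.08 in XX, beside 0.01 and -0.02 over all probe sets. KO and WT values did not overlap for 7 of the 13 probe sets in XY, against 30.7% of all probe sets, and for 8 in XX, against 23.7%.

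**Figure D2:**
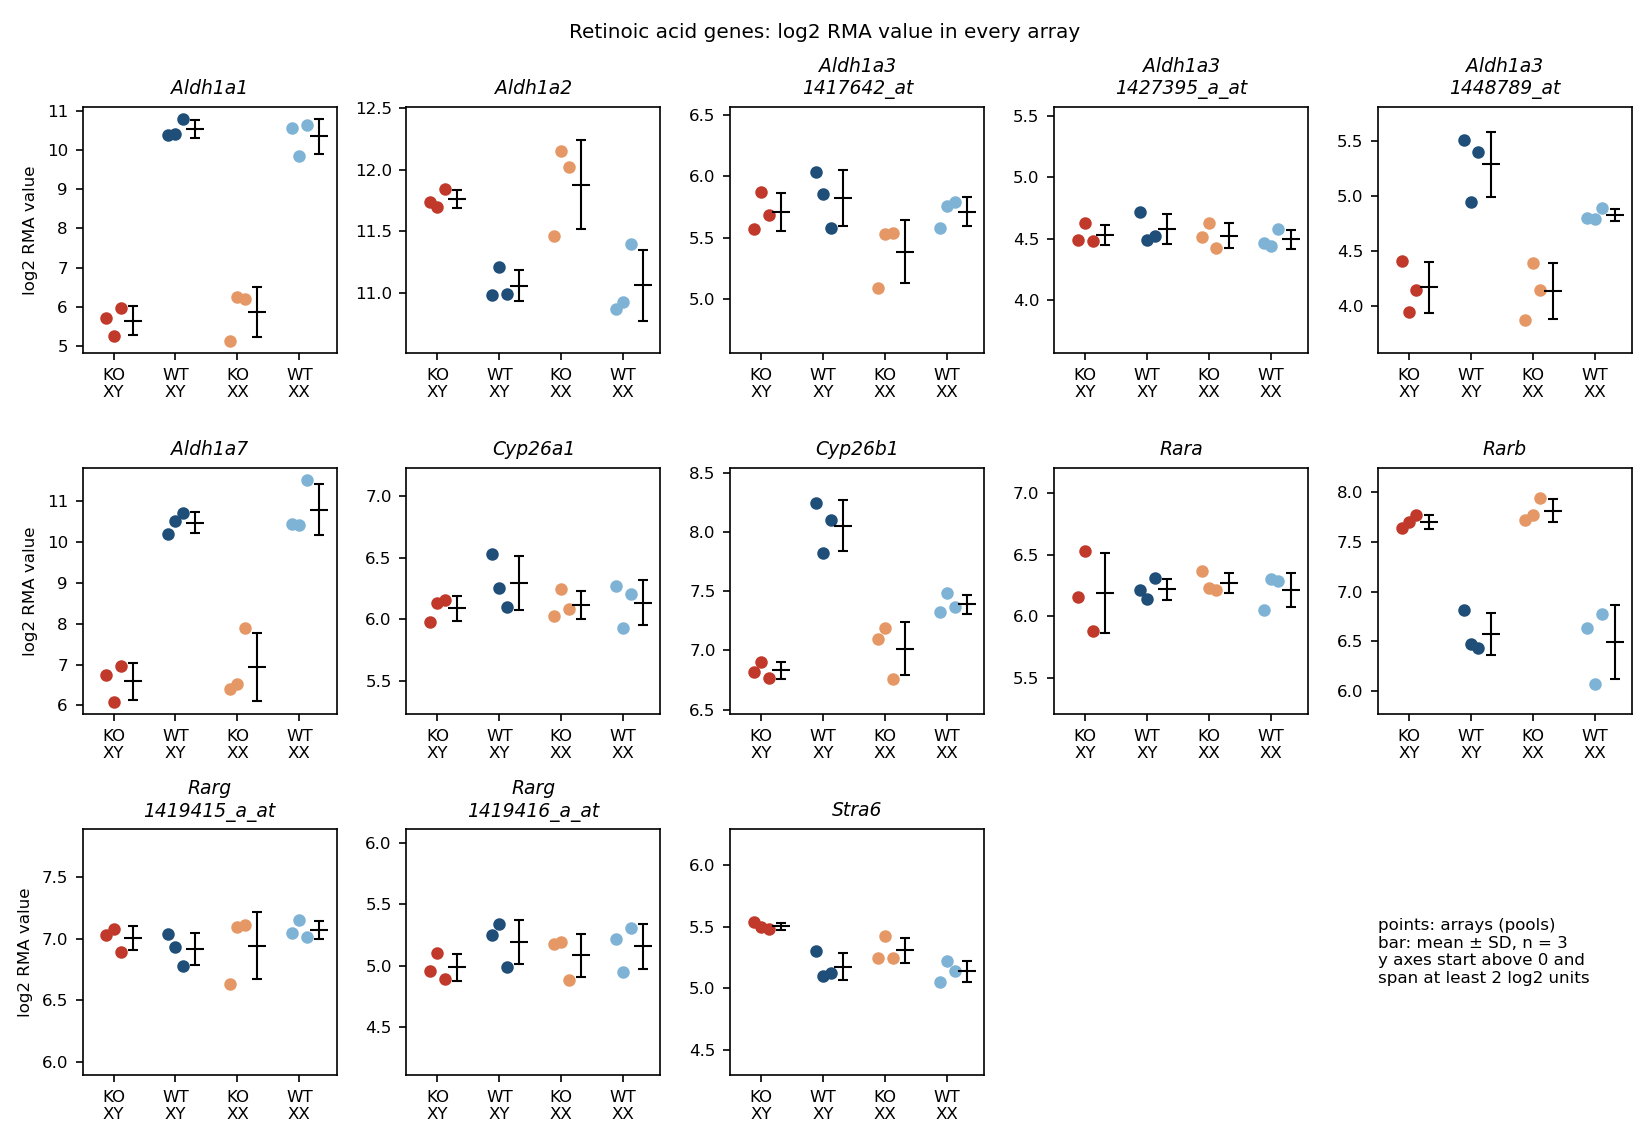
Log2 RMA value (y axis) of each of the 13 probe sets in the 12 arrays, by group, with the mean and SD (n = 3). The y axes start above 0 and each spans at least 2 log2 units. KO arrays lie below all WT arrays of the same sex for Aldh1a1 and Aldh1a7 and above them for Aldh1a2 and Rarb.

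**Figure D3:**
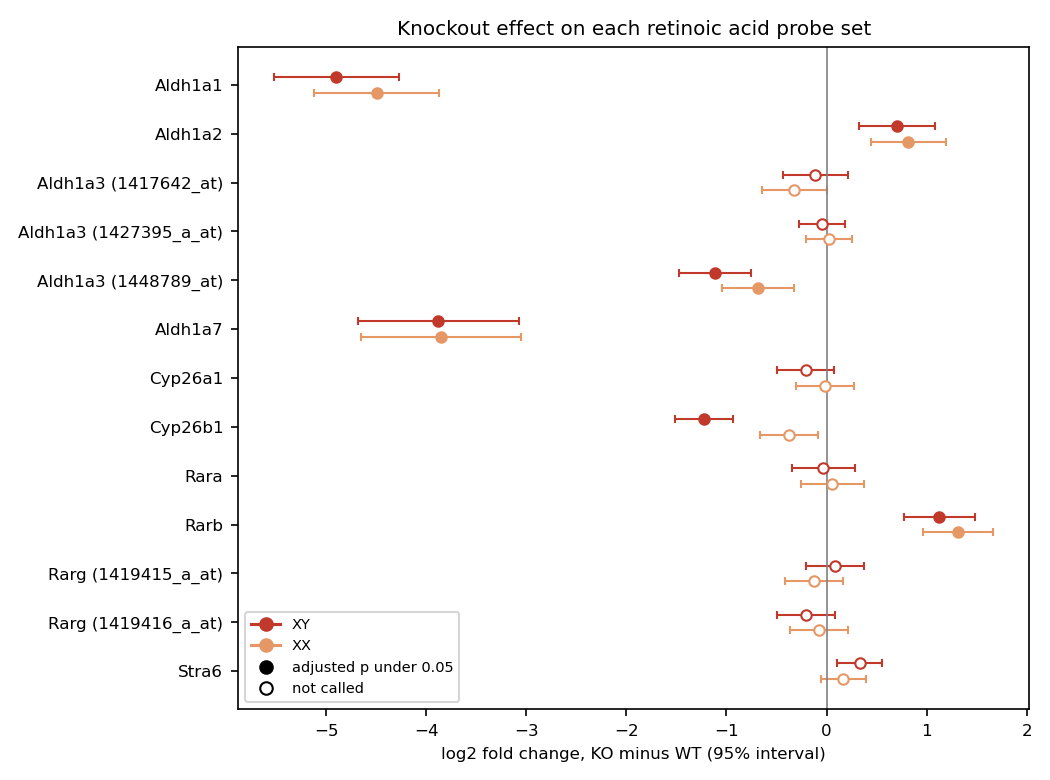
KO minus WT difference (x axis, log2) of each probe set in XY (red) and XX (orange), with 95% intervals from limma. Filled points passed at adjusted p under 0.05, which was the case for 6 probe sets in XY and 5 in XX.

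Among the synthesis enzymes, Aldh1a1, which oxidises retinaldehyde to retinoic acid, showed the largest difference. Its log2 values were 5.70, 5.25 and 5.97 in KO XY gonads, against 10.40, 10.42 and 10.80 in WT XY gonads. In XX gonads they were 5.12, 6.25 and 6.20 in KO, against 10.56, 9.84 and 10.65 in WT. Every KO array lay more than 3 log2 units below every WT array, and the ranges of the WT sexes overlapped. The KO minus WT difference was -4.90 ± 0.29 in XY, a 29.8-fold lower signal (95% interval -5.52 to -4.27, limma adjusted p = 2.05e-07). In XX it was -4.49 ± 0.29, a 22.5-fold lower signal (interval -5.12 to -3.87, limma adjusted p = 5.42e-07), and without KO XX replicate 1 it was -4.12. The array medians over all probe sets were 5.88 to 5.94, so the KO values lay near or below them. No detection calls were used, so these folds are ratios of array signals and not measured amounts of RNA. In tissue pools such as these, fewer cells of a type and less RNA per cell cannot be told apart.

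Aldh1a7, a close rodent paralogue of Aldh1a1, gave a similar picture. Its values were 6.73, 6.09 and 6.96 in KO XY, against 10.20, 10.50 and 10.71 in WT XY. They were 6.39, 6.51 and 7.90 in KO XX, against 10.44, 10.42 and 11.51 in WT XX. KO and WT did not overlap in either sex, and replicate 3 was the highest array of both XX groups. The difference was -3.88 ± 0.37 in XY (14.7-fold lower, limma adjusted p = 1.49e-05) and -3.86 ± 0.37 in XX (14.5-fold lower, limma adjusted p = 1.82e-05). Whether RNA of one paralogue binds the probes of the other was not tested. Both genes passed in each sex under all 23 alternatives.

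Aldh1a2, the enzyme that makes most of the retinoic acid of the early mouse embryo, was the synthesis gene that was higher in KO. Its values were 11.74, 11.70 and 11.84 in KO XY, against 10.98, 11.20 and 10.99 in WT XY. They were 11.46, 12.15 and 12.02 in KO XX, against 10.87, 10.92 and 11.39 in WT XX. All KO arrays lay above all WT arrays of their sex, in XX by a small margin between KO replicate 1 and WT replicate 3. The difference was 0.70 ± 0.18 in XY (1.63-fold higher, limma adjusted p = 0.0217) and 0.82 ± 0.18 in XX (1.76-fold higher, limma adjusted p = 0.00883). In XX it was 0.72 without WT XX replicate 1 (adjusted p = 0.0332) and 1.02 without KO XX replicate 1 (adjusted p = 0.0014), and the call was lost when only the XX groups were fitted (adjusted p = 0.0553). The XY call was lost with the Gapdh covariate (0.48, limma adjusted p = 0.556). It was also lost without KO XY replicate 1, 2 or 3 (adjusted p = 0.0575, 0.0522 and 0.0793) and without WT XY replicate 1 or 3 (adjusted p = 0.0854 and 0.0808).

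The 3 probe sets of Aldh1a3, another retinaldehyde dehydrogenase, disagreed. At 1448789_at the values were 4.41, 3.95 and 4.15 in KO XY, against 5.50, 4.95 and 5.40 in WT XY. They were 3.88, 4.39 and 4.15 in KO XX, against 4.80, 4.79 and 4.89 in WT XX. The groups did not overlap in either sex. This probe set fell by 1.11 ± 0.17 in XY (2.16-fold, limma adjusted p = 0.000661) and by 0.69 ± 0.17 in XX (1.61-fold, limma adjusted p = 0.0193). The XY call was lost with the Gapdh covariate (-0.94, limma adjusted p = 0.07). The XX call was lost without KO XX replicate 1 or 3 (adjusted p = 0.0818 and 0.0544) and without WT XX replicate 3 (adjusted p = 0.0556). At the brightest probe set, 1417642_at, the difference was -0.11 ± 0.15 in XY (limma adjusted p = 0.761) and -0.32 ± 0.15 in XX (limma adjusted p = 0.222). At 1427395_a_at the group means ran from 4.5 to 4.58, with differences of -0.05 in XY and 0.03 in XX (limma adjusted p = 0.882 and 0.913). A decrease of Aldh1a3 therefore rests on 1 of 3 probe sets, whose signal lay in the low part of the scale.

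Of the breakdown enzymes, Cyp26b1, which clears retinoic acid in the fetal mouse testis, fell in XY. Its values were 6.82, 6.91 and 6.77 in KO XY, against 8.24, 7.82 and 8.11 in WT XY. They were 7.10, 7.19 and 6.76 in KO XX, against 7.33, 7.48 and 7.37 in WT XX. WT XY arrays were the highest of all 12, WT XX arrays came next, and the KO arrays of both sexes lay below them with overlapping ranges. The XY difference was -1.23 ± 0.14 (2.34-fold lower, limma adjusted p = 5.01e-05), and it passed under all 23 alternatives. The XX difference was -0.38 ± 0.14, which did not pass (limma adjusted p = 0.107), although the groups did not overlap.

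Cyp26a1, the breakdown enzyme that is itself a classic target of retinoic acid, showed no such difference. Its values were 5.98, 6.13 and 6.16 in KO XY, against 6.53, 6.26 and 6.10 in WT XY. They were 6.03, 6.25 and 6.08 in KO XX, against 6.27, 5.93 and 6.21 in WT XX. The ranges overlapped in both sexes. The difference was -0.21 ± 0.13 in XY (interval -0.49 to 0.08, limma adjusted p = 0.428) and -0.02 ± 0.13 in XX (interval -0.30 to 0.27, limma adjusted p = 0.96). The gene carries the printed repeat in its promoter and its signal did not pass the test in either sex.

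Of the receptors, Rarb, whose gene is induced by retinoic acid through the repeat printed above, was higher in KO. Its values were 7.63, 7.69 and 7.77 in KO XY, against 6.81, 6.47 and 6.44 in WT XY. They were 7.72, 7.77 and 7.94 in KO XX, against 6.64, 6.07 and 6.78 in WT XX. The 6 KO arrays spanned a narrow range that lay above every WT array of either sex. The difference was 1.13 ± 0.16 in XY (2.18-fold higher, limma adjusted p = 0.000512) and 1.31 ± 0.16 in XX (2.49-fold higher, limma adjusted p = 0.000168). It passed in both sexes under all 23 alternatives, with adjusted p = 0.0165 in XY with the Gapdh covariate.

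Rara and Rarg, the other receptors, did not pass in either sex. Rara ranged from 5.88 to 6.53 in KO XY, against 6.14 to 6.31 in WT XY, and from 6.21 to 6.37 in KO XX, against 6.05 to 6.30 in WT XX. Its difference was -0.03 ± 0.15 in XY (interval -0.35 to 0.28, limma adjusted p = 0.944) and 0.06 ± 0.15 in XX (interval -0.26 to 0.37, limma adjusted p = 0.861). These intervals leave room for changes of either sign that are small beside that of Rarb. Rarg at its brighter probe set, 1419415_a_at, differed by 0.09 ± 0.13 in XY (interval -0.20 to 0.38, limma adjusted p = 0.801) and by -0.13 ± 0.13 in XX (interval -0.42 to 0.16, limma adjusted p = 0.62). At 1419416_a_at the differences were -0.21 ± 0.14 and -0.08 ± 0.14 (limma adjusted p = 0.433 and 0.789), so the sign in XY differed between its probe sets.

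Stra6, the membrane receptor through which cells take up retinol from its carrier RBP4, had a small difference. Its values were 5.54, 5.50 and 5.48 in KO XY, against 5.30, 5.10 and 5.12 in WT XY. They were 5.25, 5.43 and 5.25 in KO XX, against 5.05, 5.22 and 5.14 in WT XX. KO arrays lay above WT arrays in both sexes. The difference was 0.33 ± 0.10 in XY (interval 0.11 to 0.55), just outside the threshold at limma adjusted p = 0.068, and 0.17 ± 0.10 in XX (interval -0.06 to 0.39, limma adjusted p = 0.367). The XY difference passed in 3 of 23 alternatives and in 0 of the fits with 1 array left out. Its limma adjusted p ran from 0.0139 with array weights to 0.505 with the Gapdh covariate.

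The comparison of the sexes asks whether these genes are dimorphic at E11.5. For XY minus XX in WT gonads 0 of the 13 probe sets passed by limma, against 0.0555% of all probe sets, with 2 at an unadjusted p under 0.05, against 8.7% of all. These were Cyp26b1 and the 1448789_at probe set of Aldh1a3, both with all WT XY arrays above all WT XX arrays. Of all probe sets, 12.3% had WT sexes that did not overlap, in either direction. Cyp26b1 was 0.67 ± 0.14 higher in WT XY (1.59-fold, unadjusted p = 0.000235, limma adjusted p = 0.231). Without WT XX replicate 1, the array that lay nearer to WT XY, the difference was 0.63 and passed at limma adjusted p = 0.0298. Over all alternatives its adjusted p ranged from 0.0298 to 0.89. Of all 45037 probe sets, 2449 passed without that array, against 25 with all arrays. This fit keeps WT XX replicates 2 and 3, which lay apart from the other arrays on the second principal component. What part they have in these calls was not tested. That probe set of Aldh1a3 was 0.46 ± 0.17 higher in WT XY (limma adjusted p = 0.543). Sox9, the testis factor of supporting cells, separated the same WT arrays, with 8.96, 8.56 and 8.64 in WT XY, against 6.32, 6.48 and 6.14 in WT XX.

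In KO gonads 0 of the 13 probe sets passed between the sexes by limma, with 0 at an unadjusted p under 0.05, against 0.0377% and 10.6% of all probe sets. Values did not overlap for 2 of them, the 1417642_at probe set of Aldh1a3 and Stra6, against 16.6% of all. Cyp26b1 differed by -0.19 ± 0.14 between KO XY and KO XX (limma adjusted p = 0.633). For the difference of the KO effects between the sexes 0 of the 13 passed by limma, against 0.00666% of all probe sets. One probe set, that of Cyp26b1, had an unadjusted p under 0.05, against 6.4% of all. Its KO effect was 0.85 ± 0.19 more negative in XY than in XX (interval -1.26 to -0.44, unadjusted p = 0.000572), but the limma adjusted p was 0.676, and it ran from 0.156 to 0.99 over the alternatives. For Aldh1a1 the effects differed by -0.40 ± 0.41 (limma adjusted p = 0.85), for Aldh1a7 by -0.02 (interval -1.15 to 1.11) and for Rarb by -0.19 ± 0.23 (limma adjusted p = 0.876).

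For the 4 genes whose group means span over 1 log2 unit at their brightest probe set, the most similar named genes were sought. Likeness was the root mean square log2 difference over the 12 arrays after each gene was centred on its own mean, so a smaller value means closer profiles. Nearest to Aldh1a1 were Akr1cl (0.48), Nrn1 (0.54) and Ereg (0.55), with Aldh1a7 at rank 4 (0.59). Nearest to Aldh1a7 were Inhbb (0.37), Ereg (0.41) and Gbp2b (0.47). Nearest to Cyp26b1 were Dusp4 (0.17), Mlxipl (0.20) and Cracr2b (0.21), and nearest to Rarb were Mybpc1 (0.16), Sfrp1 (0.19) and Hspa2 (0.20). Ereg, an epidermal growth factor family ligand, is the gene that both Aldh1a1 and Aldh1a7 have among their nearest. These are descriptions over arrays that share the 4 groups, and no p is attached to them.

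The other pathway genes came from 3 lists. Of 25 listed genes of retinoid uptake, storage and metabolism 22 were measured, and in XY 2 passed as higher and 1 as lower (13.6%, median difference 0.0). In XX 1 passed as higher and 1 as lower (9.1%, median -0.02). Genes here and below were counted at their brightest probe sets, of which 11.6% passed in XY and 11.9% in XX over all 18193 genes, so these shares are near the background. The decrease in both sexes was that of Cyp1b1, a cytochrome P450 that can oxidise retinol. Its values were 10.33, 9.85 and 10.19 in KO XY, against 11.45, 11.45 and 11.28 in WT XY, and 10.32, 10.30 and 10.44 in KO XX, against 11.01, 10.90 and 10.81 in WT XX. All KO arrays lay below all WT arrays, with differences of -1.27 ± 0.13 in XY (limma adjusted p = 2.25e-05) and -0.56 ± 0.13 in XX (limma adjusted p = 0.0135). Of its other probe sets, 1416613_at gave -1.01 ± 0.18 and -0.55 ± 0.18 (adjusted p = 0.00299 and 0.0814) and 1432081_at gave 0.13 and -0.24 (adjusted p = 0.816 and 0.548).

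The genes of that list that passed as higher were Crabp2 and Rdh14 in XY and Rdh10 in XX. Rdh10, the main retinol dehydrogenase of the mouse embryo, was 0.98 ± 0.19 higher in XX (limma adjusted p = 0.00455) and 0.26 ± 0.19 in XY (limma adjusted p = 0.503). Its second probe set gave 0.36 in XX and -0.35 in XY (adjusted p = 0.143 and 0.163). Crabp2, which carries retinoic acid to receptors, was 0.71 ± 0.17 higher in XY (limma adjusted p = 0.0188) and 0.29 in XX (limma adjusted p = 0.343). The XY call of Crabp2 was lost without 1 of 3 arrays (KO XY replicates 2 and 3 and WT XY replicate 1), at adjusted p = 0.0601 to 0.0892, and with the Gapdh covariate (0.25, adjusted p = 0.785). Rdh14, a retinol dehydrogenase, was 0.57 ± 0.15 higher in XY (limma adjusted p = 0.026), a call lost without any of 5 single arrays (KO XY replicates 2 and 3 and WT XY replicates 1, 2 and 3, adjusted p = 0.0584 to 0.102). The other probe sets of Rdh14 gave 0.03 and 0.21 in XY (adjusted p = 0.952 and 0.455). With the Gapdh covariate the XY call of Rdh14 was lost (0.53, limma adjusted p = 0.384), as it was with the mean of its probe sets (adjusted p = 0.136). In XX Rdh14 was 0.34 higher (adjusted p = 0.193), while its probe set 1453864_at passed (0.45, adjusted p = 0.0467) and the mean of its probe sets passed (adjusted p = 0.0308). No difference between the sexes in these effects passed. The carrier gene Crabp1 (0.12 and -0.15 in XY and XX) and the retinaldehyde reductase gene Dhrs3 (0.10 and -0.07) did not pass.

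Of 18 listed receptor partners and cofactors 16 were measured, and 5 passed as higher and 1 as lower in XY (37.5%, median difference 0.20), against 3 and 0 in XX (18.8%, median 0.28), beside the 11.6% and 11.9% of all genes. Rxra, a receptor partner of the RARs, was 0.76 ± 0.10 higher in XY and 0.58 ± 0.10 higher in XX at its brightest probe set (limma adjusted p = 0.00022 and 0.00193). Its other probe sets did not share this, with 0.03 and -0.29 at 1425762_a_at and 0.00 and -0.21 at 1430497_at (XY and XX, adjusted p = 0.191 or more). Rxrb was 0.51 ± 0.12 higher in XY (limma adjusted p = 0.0152, and 0.0546 to 0.0696 without 1 of 3 arrays, KO XY replicate 2 and WT XY replicates 1 and 3) and 0.06 in XX (adjusted p = 0.819). The XY call of Rxrb was also lost with the Gapdh covariate (0.41, limma adjusted p = 0.402). Rxrg did not pass in either sex (-0.03 and -0.24, adjusted p = 0.933 and 0.212).

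The orphan nuclear receptor gene Nr2f2 had 11.77, 11.92 and 11.80 in KO XY, against 10.39, 10.53 and 10.37 in WT XY, and 12.30, 11.98 and 11.67 in KO XX, against 10.22, 11.14 and 10.98 in WT XX. KO arrays lay above all WT arrays, with 1.40 ± 0.21 in XY and 1.20 ± 0.21 in XX (limma adjusted p = 0.000512 and 0.00182). Of its other probe sets, 1416158_at did not pass, at 0.10 in XY and 0.26 in XX (adjusted p = 0.73 and 0.226). Nr2f1, its paralogue, was 1.22 ± 0.18 higher in XY (limma adjusted p = 0.000603) and 0.57 in XX (adjusted p = 0.0651). The XX value of Nr2f1 passed in 5 of 23 alternatives (adjusted p = 0.00331 to 0.0479), namely with the Gapdh covariate (0.75), the replicate block, 1 probe set per gene, the mean of its probe sets and WT XX replicate 3 left out. With the Gapdh covariate the XY calls of Nr2f1 and Nr2f2 were lost (adjusted p = 0.0895 and 0.0809). Zfp423, a RAR cofactor, was 0.58 ± 0.15 and 0.59 ± 0.15 higher in XY and XX (limma adjusted p = 0.0272 and 0.0247). Its XY call was lost without 1 of 5 arrays, all of the XY arrays but KO replicate 2 (adjusted p = 0.0592 to 0.115), and its XX call without 1 of 3 arrays, KO XX replicates 2 and 3 and WT XX replicate 1 (adjusted p = 0.0661 to 0.0874). With the Gapdh covariate the XY call was lost (0.30, limma adjusted p = 0.718), and the XX call was lost when only the XX groups were fitted (adjusted p = 0.0579). The decrease was Nr2f6, named after its values were seen, at -0.49 ± 0.14 in XY (limma adjusted p = 0.0381, and 0.06 to 0.161 without any 1 of the 6 XY arrays). With the Gapdh covariate it was -0.32 (limma adjusted p = 0.656). In XX Nr2f6 was at -0.45 ± 0.14 (limma adjusted p = 0.0547) and passed in 7 of 23 alternatives (adjusted p = 0.00785 to 0.0488), the Gapdh covariate among them (-0.51, adjusted p = 0.0344).

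Of 19 listed retinoic acid responsive genes 14 were measured, and 4 passed as higher and 2 as lower in each sex (42.9%, median difference 0.09 in XY and 0.05 in XX), beside the 11.6% and 11.9% of all genes. Tgm2, a transglutaminase gene induced by retinoic acid in many cells, had the largest difference. Its values were 12.86, 12.80 and 12.89 in KO XY, against 10.59, 10.13 and 9.84 in WT XY, and 12.79, 12.57 and 12.47 in KO XX, against 9.67, 10.74 and 9.87 in WT XX. The groups were far apart, with 2.66 ± 0.23 in XY and 2.52 ± 0.23 in XX (limma adjusted p = 6.72e-06 and 1.38e-05). Meis1 and Meis2, which encode homeobox transcription factors, were higher by 0.89 ± 0.12 and 1.30 ± 0.16 in XY and by 1.12 ± 0.12 and 1.20 ± 0.16 in XX (limma adjusted p between 5.21e-05 and 0.000356). One further probe set of Meis1, 1459423_at, gave 0.21 in XY and 0.26 in XX (adjusted p = 0.506 and 0.347). For Meis2, 1440091_at passed in XX but not in XY (0.95, limma adjusted p = 0.0633), and its other probe sets passed in both sexes. Of the further Tgm2 probe sets, 1426004_a_at gave 0.66 in XY and 0.55 in XX. Lower still, 1438942_x_at gave 0.6 and 0.46 (limma adjusted p = 0.016 and 0.0578). The remaining Tgm2 probe sets ranged from 2.34 to 2.81. Bhlhe40, a transcriptional repressor gene, was 0.72 ± 0.14 higher in XY and 1.05 ± 0.14 higher in XX (limma adjusted p = 0.00457 and 0.00025).

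Rec8, a meiotic cohesin gene that retinoic acid induces in mouse germ cells, moved the other way. Its values were 7.45, 7.33 and 7.56 in KO XY, against 8.37, 8.38 and 8.63 in WT XY, and 7.23, 7.56 and 7.49 in KO XX, against 8.80, 8.43 and 8.38 in WT XX. All KO arrays lay below all WT arrays, by 1.02 ± 0.14 in XY and 1.11 ± 0.14 in XX on the log2 scale (limma adjusted p = 0.000291 and 0.000164). Stra8, the meiosis gene that retinoic acid induces in ovarian germ cells, was at 5.08 to 5.94 in all arrays, with differences of 0.01 ± 0.17 and -0.14 ± 0.17 (limma adjusted p = 0.992 and 0.671). The other decrease, Rarres1, named after its values were seen, was -0.70 ± 0.19 in XY and -1.18 ± 0.19 in XX (limma adjusted p = 0.0319 and 0.0011). The XY call of Rarres1 was lost without 1 of 5 arrays, all of the XY arrays but WT replicate 3 (adjusted p = 0.0659 to 0.128). With the Gapdh covariate the XY calls of Meis1, Bhlhe40, Rec8 and Rarres1 were lost (adjusted p = 0.0519, 0.145, 0.0507 and 0.567), while those of Tgm2 and Meis2 passed.

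**Figure D4:**
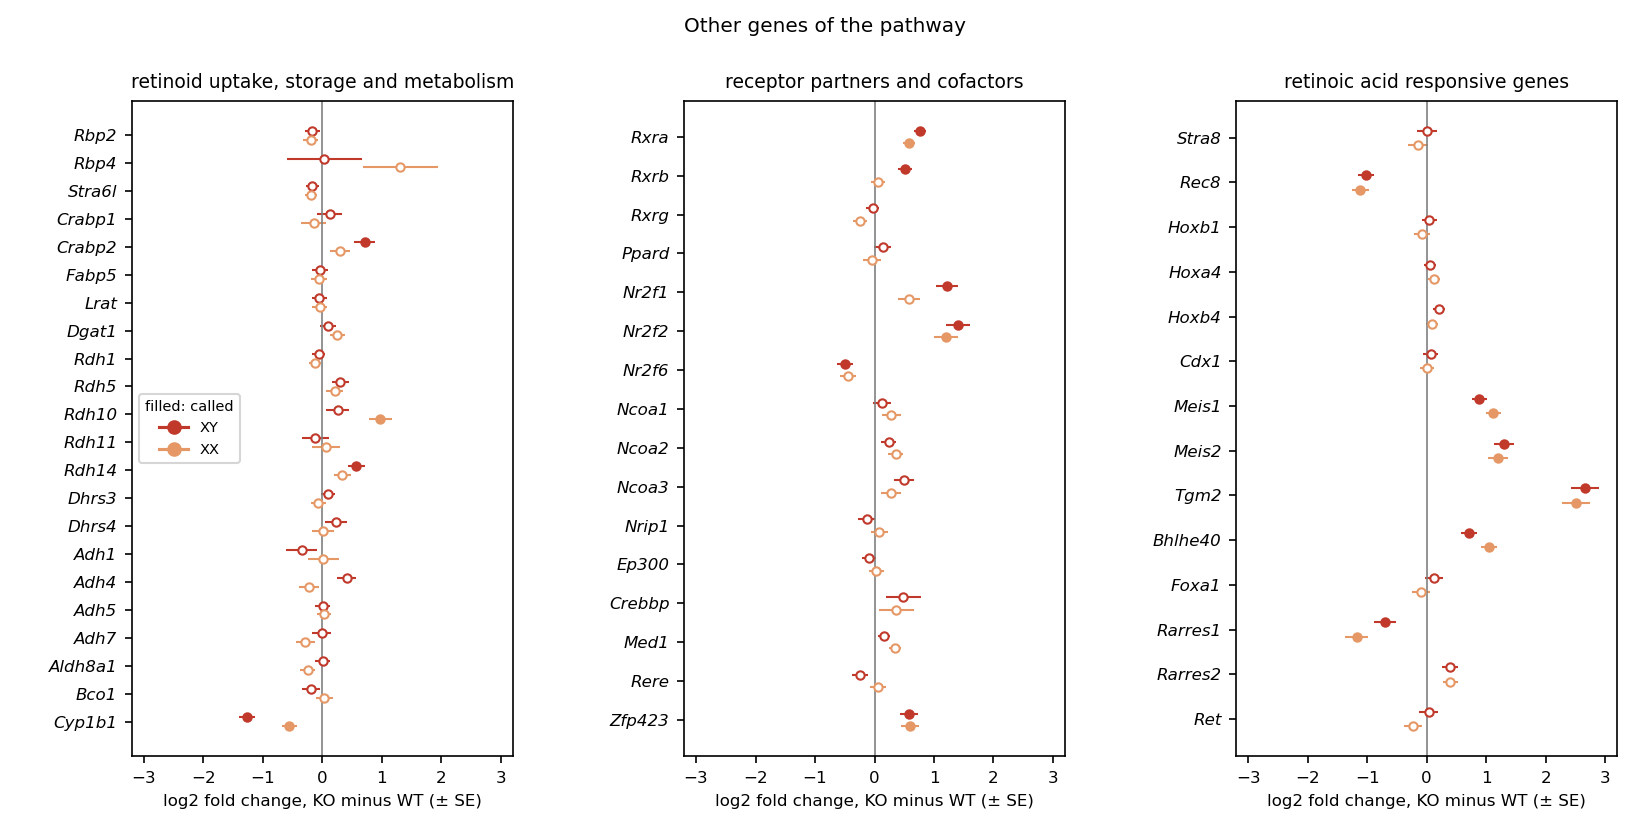
KO minus WT difference (x axis, log2, with SE) of the measured genes of the 3 pathway lists at their brightest probe set, in XY (red) and XX (orange). Filled points passed at adjusted p under 0.05, among them Tgm2 at 2.66 and 2.52 on the right and Cyp1b1 and Rec8 on the left of 0.

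Markers of some cell types also differed between KO and WT, and their part in the results was not tested. Beside the counts below stand the 11.6% of all genes that passed in XY and the 11.9% in XX. Of 5 gonadal ridge markers 3 fell in each sex, Gata4 (-1.49 and -1.41 in XY and XX), Nr5a1 (-2.35 and -2.04) and Lhx9 (-1.21 and -0.96), while Wt1 and Emx2 did not pass. Wt1, which marks gonadal and mesonephric precursors, averaged 11.01 in KO XY, against 11.18 in WT XY, and 10.93 in KO XX, against 11.05 in WT XX. All 7 supporting cell markers fell in XY and 6 of 7 in XX, all but Sox9, and their summed linear signal was 2100 to 2839 in KO XY, against 10400 to 11589 in WT XY, and 2213 to 2884 in KO XX, against 9434 to 10596 in WT XX. Inhbb, the nearest gene to Aldh1a7, is one of them. Of 8 coelomic epithelium markers 5 rose and 1, Krt8, fell in each sex, with sums of 9259 to 9354 in KO XY, against 4589 to 5428 in WT XY, and 9027 to 11547 in KO XX, against 4109 to 4978 in WT XX. Of 7 measured mesonephros markers 1, Calb1, fell (-3.45 in XY and -2.09 in XX), and their sums were 325 to 340 in KO XY, against 1055 to 1215 in WT XY, and 316 to 430 in KO XX, against 543 to 972 in WT XX. The other 6 did not pass, and the median difference of the 7 was -0.07 in XY and -0.14 in XX.

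Endothelial markers fell in 4 of 6 cases in XY and 3 of 6 in XX, with sums of 1247 to 1842 in KO XY, against 2269 to 2459 in WT XY, and 1370 to 2178 in KO XX, against 1913 to 2420 in WT XX. Macrophage markers rose in 2 of 6 cases in XY and 1 of 6 in XX, with sums of 2269 to 2544 in KO XY, against 1219 to 1654 in WT XY, and 1757 to 3493 in KO XX, against 1288 to 2031 in WT XX. Germ cell markers passed in 0 of 6 cases in XY and rose in 3 of 6 in XX, with sums of 3698 to 4375 in KO XY, against 3455 to 4632 in WT XY, and 3515 to 4216 in KO XX, against 3101 to 4047 in WT XX. Of 3 measured neural markers 0 passed in either sex. RMA values have no zero, so no marker can be called absent.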

How the data were processed

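The deposited values are log2 intensities of Affymetrix mouse genome arrays, which the authors obtained by RMA (background correction, quantile normalization and a summary per probe set). Expression Console of Affymetrix, affy and RMA appear in the submitters' processing notes, with no version. Values ran from 2.37 to 15.01 and were used as given, with no filter and no sequencing-like depth, so the number of arrays limits the precision. Of 45101 probe sets 64 controls were left out, and 34945 of the rest had 1 annotated gene, 932 had several and 9160 had none. Gene symbols come from GEO's platform annotation. A gene was represented by its brightest probe set.

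All 45037 probe sets were fitted with limma 3.58.1 in R 4.3.3 (lmFit, eBayes, 4 group means, 8 residual degrees of freedom). Contrasts, 5 in all, were KO minus WT in XY and in XX, their difference, and XY minus XX in WT and in KO, two-sided, with Benjamini-Hochberg adjustment over all probe sets and calls under 0.05. Errors of differences are standard errors, errors of means are SD. Marker sums add linear values of the brightest probe sets. The steps were tested on simulated data.

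The genes, the lists and the rule for named genes (the 5 smallest p of each list in each sex among calls, and 12 fixed names) were chosen with earlier results of these data known. Of the listed pathway and marker genes 12 lacked a probe set of their own and were not analysed here. Replicate numbers were not treated as pairs, since the labels state no pairing. Of 18 same-number correlations 4 exceeded 0.1, with a range of -0.178 to 0.224, which does not settle whether pairs exist. Alternatives changed normalization, filter, probe set choice, variance prior, weights, block, groups, covariate, threshold and single arrays. Raw scans were not used here.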

Additional observations from a re-analysis of the deposited data

How the results depend on the processing

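The 65 results for the 13 probe sets gave 1442 pairs of a result and an alternative, of which 1424 kept their side of the threshold. The call was lost in 13, gained in 5 and reversed in 0, while 27 of 54 uncalled results changed sign somewhere. In KO minus WT, 4003 probe sets passed in XY and 4213 in XX. With 1 array left out these ran from 2541 to 5637 in XY and from 3032 to 4129 in XX, the difference of effects from 3 to 10 (3 with all arrays), WT sex calls from 18 to 2449 (25 with all arrays, 2449 without WT XX replicate 1) and KO sex calls from 13 to 30 (17 with all arrays). Calls among the 10 genes ran from 5 to 6 in XY, 4 to 5 in XX, 0 to 1 between WT sexes, and stayed 0 in the other contrasts. Testing 1 probe set per gene, the brightest, gave 2421, 2493, 1, 11 and 6 calls (XY, XX, difference, WT sexes, KO sexes), and the mean of probe sets gave 2257, 2340, 1, 10 and 5, with fewer features tested. Array weights gave 6937 in XY and 60 between WT sexes. Fitting only the groups compared gave 6139 in XY and 2514 in XX, the Gapdh covariate 1040 in XY and 0 for the difference, and a threshold of 0.01 gave 2024 in XY and 2013 in XX. The cause was not tested. The replicate block gave 4166, 4249, 3, 22 and 20 calls and changed no call of the 10 genes.

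Of the pathway lists, uptake and metabolism had 3 calls in XY and 1 with the Gapdh covariate, partners and cofactors 6 and 1, responsive genes 6 and 2. Leaving out single arrays moved partners and cofactors to 3 in XY (WT XY replicate 1 or 3) and to 5 in XX (WT XX replicate 3, 3 with all arrays, and 6 with 1 probe set per gene or 7 with the Gapdh covariate), and uptake and metabolism to 1 in XY (KO XY replicate 2 or 3, or WT XY replicate 1). Low signal limits Aldh1a3, Stra6 and Cyp26a1, whose probe sets lay near the middle or the low end of the scale.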

Other observations

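In the retinoid list, the carrier gene Rbp4, which encodes the plasma protein that brings retinol to STRA6, had an SE of 0.63 in the KO contrasts, the widest of the pathway genes named. KO XX replicate 1 lay at 8.17, while the other 11 arrays lay between 4.34 and 4.72. The KO minus WT difference in XX was 1.31 (limma adjusted p = 0.237), and without that array it was 0.15 (limma adjusted p = 0.58). In the same array 7 genes, at their brightest probe sets, exceeded every other array by at least 2 log2 units, and in each of the other 11 arrays 0 genes did. They were chosen after their values were seen, and all encode secreted proteins that are known from plasma. Afp lay at 11.41 in KO XX replicate 1 and at 5.42 to 6.26 elsewhere. Alb lay at 9.33, against 4.77 to 5.95 elsewhere, and Ambp at 8.16, against 4.01 to 4.76 elsewhere. Serpina1b, Serpina6 and Igfbp1 were the others, at 7.18, 6.41 and 7.13 in that array. The source of this signal was not tested.

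Of the 5 retinoic acid genes called in KO minus WT in XX, 4 kept their call without this array, and the exception was Aldh1a3 at 1448789_at (-0.56, limma adjusted p = 0.0818).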
